A study of Mus musculus with 6 samples.

Results

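The control KPCY tumour cells of the series were described from the 2 libraries made after transduction with shNT, a non-targeting short hairpin RNA, out of 6 libraries in all. A gene was counted as expressed when its level was at least 1 TPM in each of the 2 libraries, and 10856 of the 24493 genes in the table met this. TPM, a measure of transcript abundance, divides the reads of a gene by its length and scales each library to a total of 1000000, so it can be compared between genes, while the number of reads behind a value is unknown and no counting interval is given.

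All samples are mouse pancreatic tumour cells of the C57BL/6 strain, and the study set shNT cells against cells with hairpins to Pthlh, which encodes parathyroid hormone-related protein. The labels name the cells KPCY and do not list the alleles. The condition is labelled as tumour cells sorted from the animal, whereas the protocols mention DMEM medium and transduction with the hairpin, and which of these came last before RNA extraction is not settled. The design text speaks of 2 parental clones, no label ties a library to one of them, and nothing says that the 2 replicates were separate cultures or animals, so the spread between them may be technical.

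KPCY is the usual name of a mouse model of pancreatic ductal adenocarcinoma in which Cre recombinase, driven by the Pdx1 promoter, switches on mutant cancer driver alleles, of Trp53 among others, together with a yellow fluorescent protein that labels the tumour cells and their descendants. Tumours of this kind are classed by how far they keep the gland-forming, endodermal programme of the duct or move towards a basal or mesenchymal one. Transcription factors such as Hnf4a, Foxa2 and Gata6 belong to the former, Zeb1, Snai2 and Trp63 to the latter, and adhesion molecules, growth factor receptors and metabolic isoforms differ between them.

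The levels of the expressed genes ran over several orders of magnitude: 4097 had a mean below 10 TPM, 5718 lay from 10 to under 100 TPM, 931 from 100 to under 1000 TPM, and 110 at 1000 TPM or more. A further 472 genes reached the minimum in 1 library only, 5366 were above 0 but below the minimum in both, and 7799 were listed at 0 in both. Between the libraries the median expressed gene differed 1.08-fold and 95% of genes differed by less than 1.44-fold. The difference moved with transcript length: genes whose longest transcript was under 500 bases had a median log2 difference, replicate 2 over replicate 1, of 0.49, against -0.06 for those of 5000 bases or more, and the part of length in any result was not tested. The entry of the microRNA Mir6236 alone held 34.1% of the TPM in replicate 1 and 24.3% in replicate 2, so the TPM of all other genes are lowered by that share. TPM divides by length, and neither the length used for this entry nor the reads behind it were seen. The mature form has 19 bases, which need not be the length used. Whether those reads come from the microRNA was not tested. The mature sequence, shown because 1 entry takes so much of each library, is given from RefSeq (GRCm38.p6, chr9:110281353-110281371, plus strand) with its seed, bases 2 to 8, in capitals.
Mir6236: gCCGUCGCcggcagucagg

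As a background, 44.3% of all genes in the table and 50.5% of the 20024 that RefSeq lists as protein-coding were expressed. Against these, 42.0% of the lineage factors looked at (94 of 224) were expressed. That group of 224 also counts 32 oncogenes, tumour suppressors and cell cycle regulators, which are not lineage factors and raise its share. Of the other groups, 36.8% of the receptors (103 of 280) and 31.8% of the ligands (106 of 333) were expressed. The shares were 40.1% for the adhesion and cytoskeletal genes (124 of 309) and 52.2% for the metabolic isoforms (120 of 230). The families differed more than these sums: none of 39 Hox genes was expressed, against 29 of 32 oncogenes, tumour suppressors and cell cycle regulators, as the plot of expressed shares shows.

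**Figure D1:**
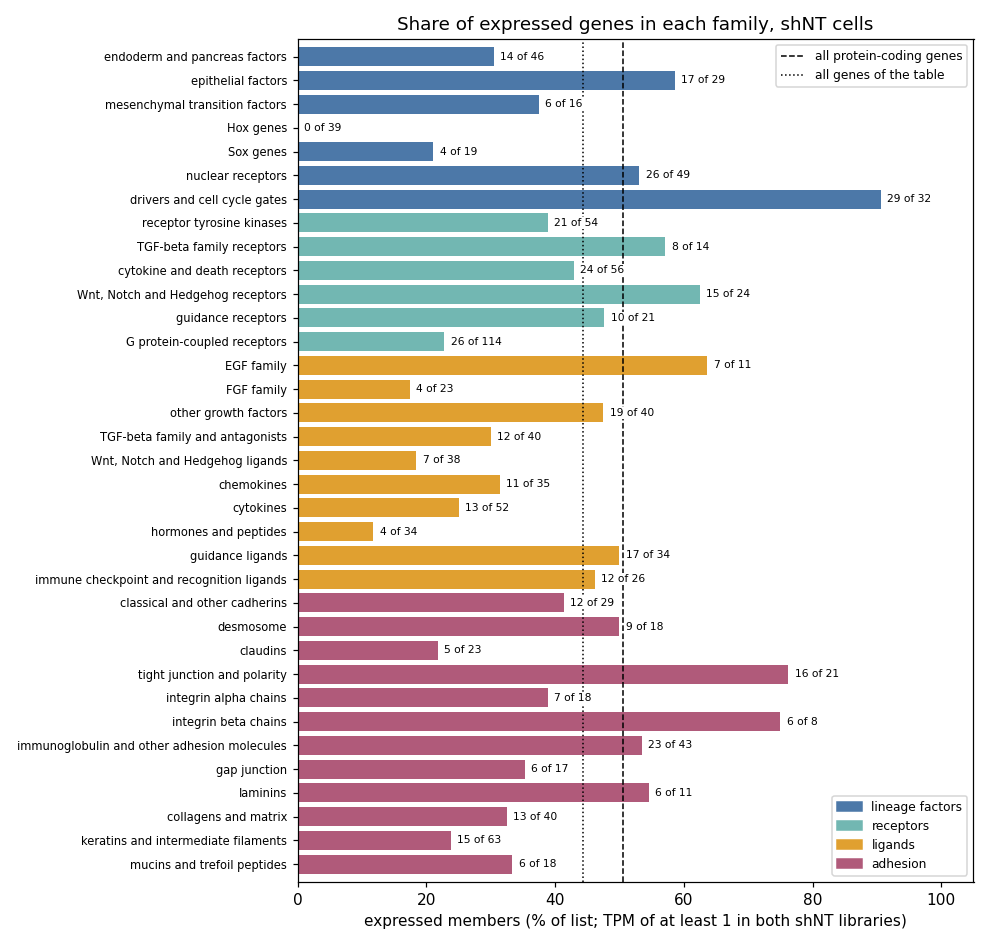
Share of the genes of each family with a TPM of at least 1 in both shNT libraries (horizontal axis, % of the family; the count is printed beside each bar). The vertical lines mark the 44.3% of all genes and the 50.5% of protein-coding genes that were expressed; the drivers and cell cycle family lies to the right at 29 of 32 and the Hox genes at 0 of 39.

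The label of the cells as pancreatic tumour cells was set against 17 ductal marker genes. Of these 14 (82.4%) were expressed, against 50.5% of protein-coding genes. The simple-epithelium keratins led them: Krt18 was at 1527 and 1430 TPM in replicates 1 and 2. Its partner Krt8 was at 1479 and 1479 TPM, and the ductal keratins Krt19 and Krt7 followed at 435 and 418 and at 393 and 374 TPM. Spp1, the secreted matrix protein osteopontin, reached 1256 and 1311 TPM, and Cdh1, the epithelial cadherin, 312 and 286 TPM. Mid-level members were the tetraspanin gene Tspan8 at 271 and 298 TPM, the membrane mucin Muc1 at 125 and 121 TPM and the water channel Aqp1 at 75.2 and 78.4 TPM. The ductal bicarbonate genes were lower: the sodium bicarbonate cotransporter Slc4a4 was at 8.05 and 7.73 TPM and carbonic anhydrase Car2 at 7.84 and 7.57 TPM.

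The 3 ductal markers below the minimum were Epcam, Cftr and Cldn4. Epcam, the epithelial cell adhesion molecule used to sort carcinoma cells, was at 0.289 and 0.605 TPM, far below Cdh1 in both libraries. Cftr, the chloride channel of the duct surface, was at 0.283 and 0.226 TPM, and the claudin Cldn4 at 0.235 and 0.153 TPM. The starts of Krt8 and Epcam are shown because these markers of 1 cell type stood at opposite ends of the scale; each window runs from 250 bases before to 50 bases after the start of the gene (RefSeq, GRCm38.p6), Krt8 at chr15:102004293-102004592 on the minus strand and Epcam at chr17:87635729-87636028 on the plus strand. Capitals mark the E-box letters CAGGTG, the core bound by Zeb and Snail factors, and the TATA-box letters TATAAA, each on either strand (CACCTG and TTTATA).
Krt8: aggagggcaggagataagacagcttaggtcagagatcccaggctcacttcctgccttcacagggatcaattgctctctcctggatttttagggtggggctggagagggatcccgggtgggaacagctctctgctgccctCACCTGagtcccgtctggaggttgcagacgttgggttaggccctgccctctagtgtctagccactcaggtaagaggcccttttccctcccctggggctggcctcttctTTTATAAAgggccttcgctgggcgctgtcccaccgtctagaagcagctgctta
Epcam: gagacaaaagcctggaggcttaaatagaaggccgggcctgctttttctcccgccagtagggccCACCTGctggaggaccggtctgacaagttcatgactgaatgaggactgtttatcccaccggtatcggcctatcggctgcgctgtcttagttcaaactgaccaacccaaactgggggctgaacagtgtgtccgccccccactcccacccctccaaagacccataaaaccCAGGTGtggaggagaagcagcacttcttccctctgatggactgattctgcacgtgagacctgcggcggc
The Krt8 window held 1 E-box match and 2 overlapping matches to the TATA letters, and the Epcam window 2 E-box matches and no TATA match. Of all 16020 protein-coding promoters with a sequence, 19.1% held the E-box letters and 12.9% the TATA letters, and a match is a description of the letters, not of a bound site.

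Most markers of cells that a tumour could bring along were at or near 0. In bulk RNA, fewer cells of a type and less RNA per cell cannot be told apart. No fibroblast marker of 13 was expressed, 8 were listed at 0, and the sum over the list was 0.612 and 0.438 TPM; Col1a1, the main fibrillar collagen, was at 0.256 and 0.159 TPM. Of 12 endothelial markers, Egfl7 alone was expressed, at 5.87 and 6.62 TPM, while Cdh5 was listed at 0 in both libraries. The macrophage list summed to 74.3 and 76.9 TPM, nearly all of it from Cd14, the lipopolysaccharide co-receptor, at 66.2 and 69.6 TPM; Mrc1 (4.8 and 4.7 TPM) and Cd68 (2.37 and 1.4 TPM) also passed. The defining macrophage genes C1qa, C1qb, C1qc, Lyz2, Tyrobp and Adgre1 were listed at 0, and the pan-leukocyte gene Ptprc was at 0.0317 and 0.048 TPM. None of 10 neutrophil and none of 12 lymphocyte markers was expressed, although Cd3d, a T cell receptor subunit, was at 0.946 and 1.09 TPM. Of 8 erythroid markers the globin gene Hba-a1 was expressed, at 1.6 and 1.31 TPM, and of 10 markers of neurons and glia the tubulin gene Tubb3, at 28.4 and 29.2 TPM. None of 10 adipocyte and muscle markers was expressed.

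Markers of the other pancreatic lineages were mostly at or near 0 too. Of 18 acinar genes, Cela1, an elastase also made outside the pancreas, was at 14.2 and 19.5 TPM, and the digestive enzyme genes Cpa1, Cpb1 and Pnlip were listed at 0. Of 13 islet genes, the hormone gene Ghrl was at 2.71 and 4.09 TPM, and Ins1, Ins2, Gcg and Sst were listed at 0. Apob, the apolipoprotein of liver and gut, was at 29.3 and 30.7 TPM while Alb was at 0.0289 and 0.0526 TPM, so 1 of 8 hepatocyte markers was expressed. Gut markers were more often expressed than these, at 6 of 10 intestinal and 4 of 12 gastric genes. Of all protein-coding genes 50.5% were expressed, so the intestinal share lay above this background and the gastric share below it. Krt20, a keratin of gut surface cells, was at 140 and 154 TPM and the intestinal cadherin Cdh17 at 75.7 and 76.3 TPM. The gastric trefoil peptide Tff1 was at 85 and 146 TPM. Among the members not expressed, Cdx1, Sis and Gkn3 were listed at 0 in both libraries. The mucin genes Muc2 and Muc6 were at 0.0321 and 0 and at 0.0121 and 0.0438 TPM.

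The endodermal transcription factors formed a graded series in which 14 of 46 genes were expressed. Hnf4a (GENCODE M21 on GRCm38, chr2:163506808-163572910), the nuclear receptor that maintains liver and gut epithelium, stood highest at 117 and 112 TPM. Foxa2, a pioneer factor of foregut endoderm, was next at 60.9 and 62.7 TPM, and the lower Hnf4a value lay above the higher Foxa2 value. The 3 endodermal GATA factors were all expressed, Gata5 at 37.3 and 38.8, Gata4 at 34.5 and 33.9 and Gata6 at 23.4 and 21.1 TPM, and these did not overlap in this order. Hhex, a homeobox gene of early liver and pancreas, was at 17.7 and 16.9 TPM, and Onecut2, a cut-homeobox factor, at 19.6 and 20.3 TPM. Sox9, the factor of ductal and progenitor cells, was low at 4.88 and 5.04 TPM, and so was Foxa1, the close relative of Foxa2, at 2.08 and 2.18 TPM.

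The acinar and endocrine factors named here were below the minimum, whereas other factors of the pancreas, such as Hhex and Sox9 above, were expressed. Pdx1, the pancreatic master gene whose promoter drives Cre in KPCY mice, fell on different sides of it, at 1.53 and 0.695 TPM. Ptf1a and Nr5a2, which govern acinar cells, were at 0.0418 and 0 and at 0 and 0 TPM, and Nkx6-1, Neurog3, Neurod1, Pax4 and Isl1 of the endocrine lineage were listed at 0 in both libraries. Cdx2, the intestinal homeobox factor, was at 0.332 and 0.126 TPM although intestinal genes such as Cdh17 were expressed. Trp63, the squamous and basal factor, was at 0.012 and 0 TPM. None of the 39 Hox genes was expressed; 27 were listed at 0 and Hoxd9 was the highest at 0.453 and 0.565 TPM.

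**Figure D2:**
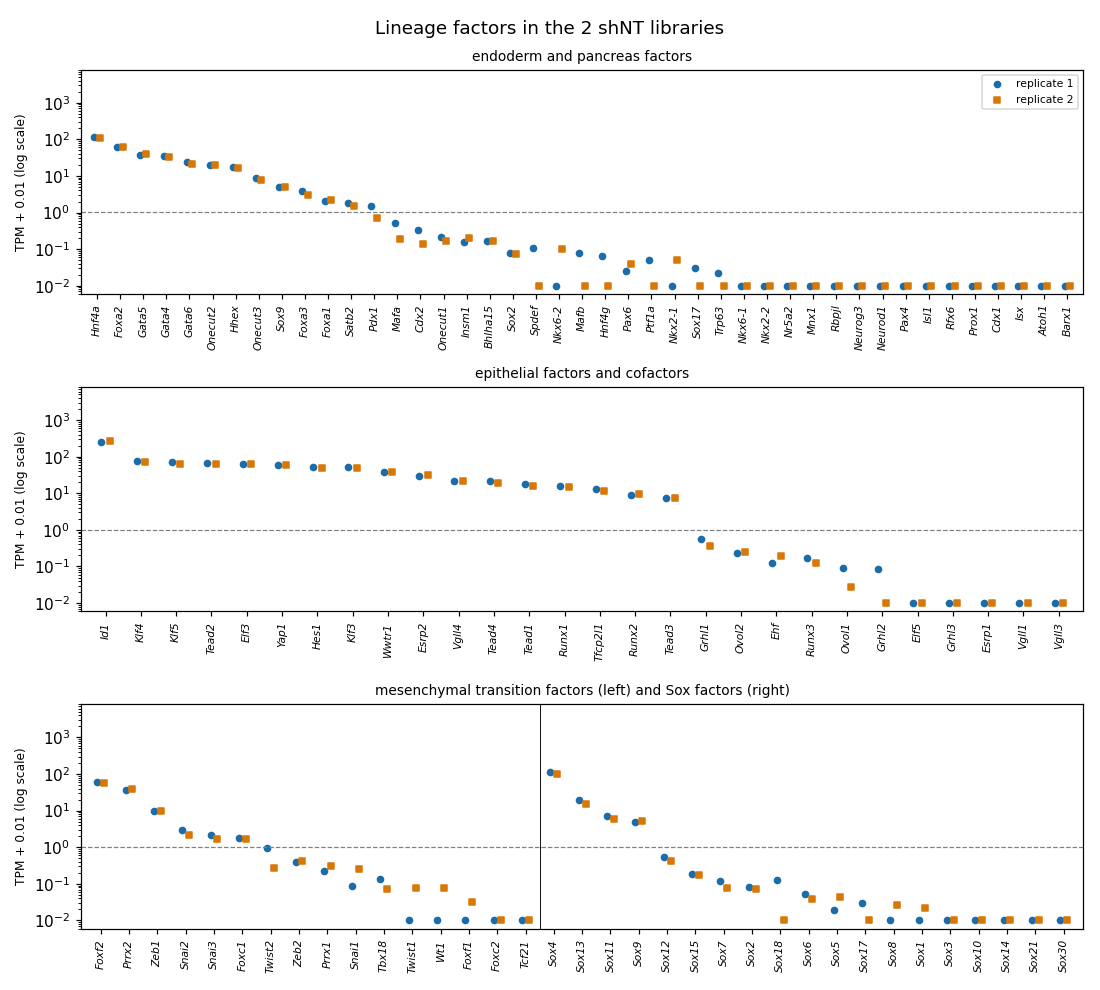
TPM + 0.01 on a log axis for endoderm and pancreas factors, epithelial factors, mesenchymal transition factors and Sox factors; circles are replicate 1, squares replicate 2, and the dashed line is 1 TPM. Hnf4a leads the endoderm panel at 117 and 112 TPM, and Pdx1 straddles the line at 1.53 and 0.695 TPM.

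Of 29 epithelial regulators 17 were expressed, and Id1, an inhibitor of helix-loop-helix factors and target of BMP signalling, was the highest at 257 and 267 TPM. The Krüppel-like factors Klf4 (75.3 and 70.2 TPM) and Klf5 (69.3 and 63.1 TPM) and the Ets factor Elf3 (63.3 and 61.5 TPM), all of gut and duct epithelium, were close to each other in level. The Hippo pathway coactivators Yap1 and Wwtr1 were at 60.1 and 59.1 and at 39.3 and 39 TPM, and their DNA-binding partner Tead2 at 69.3 and 62.6 TPM. The grainyhead and Ovo factors that hold the epithelial state were below the minimum: Grhl2 was at 0.0776 and 0 TPM, Ovol1 at 0.0788 and 0.0179 TPM and Ovol2 at 0.22 and 0.235 TPM. Of the epithelial splicing regulators, Esrp2 was at 30 and 30.9 TPM and Esrp1 was listed at 0 in both libraries.

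Of 16 mesenchymal transition factors 6 were expressed, a share of 37.5%. Foxf2, a forkhead factor of gut mesenchyme, was at 59.2 and 56.5 TPM, and the paired-like homeobox gene Prrx2 at 37.3 and 40 TPM. Zeb1, a repressor of Cdh1, was at 9.88 and 9.56 TPM, Snai2 at 2.86 and 2.15 TPM and Snai3 at 2.2 and 1.68 TPM. Their relatives Zeb2 (0.397 and 0.412 TPM), Snai1 (0.0768 and 0.245 TPM), Twist1 (0 and 0.0693 TPM), Twist2 (0.924 and 0.266 TPM) and Prrx1 (0.215 and 0.299 TPM) were not expressed. Zeb1 lay above Zeb2, Snai2 above Snai1 and Prrx2 above Prrx1 without overlap between libraries.

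Nuclear receptors were expressed at 26 of 49, close to the share of all protein-coding genes. Nr2f6, an orphan receptor, was at 119 and 113 TPM, and its values overlapped those of Hnf4a. The lipid sensors Ppard (42.4 and 38.2 TPM) and Pparg (30.2 and 29.1 TPM) were expressed, while Ppara, which drives fatty acid oxidation in liver, was at 0.135 and 0.224 TPM. Among receptors for hormones and vitamins, Rarg for retinoic acid was at 26.1 and 22.3 TPM, Nr3c1 for glucocorticoids at 9.01 and 9.03 TPM and Thra for thyroid hormone at 17.2 and 18.3 TPM. The estrogen receptor Esr1 (0.0954 and 0.0317 TPM) and the vitamin D receptor Vdr (0.279 and 0.277 TPM) were below the minimum, and Pgr was listed at 0. Of 19 Sox genes 4 were expressed, led by Sox4, a factor of progenitor and transforming growth factor responses, at 112 and 99.1 TPM.

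Of 32 oncogenes, tumour suppressors and cell cycle regulators 29 were expressed, and only some of these are often altered in pancreatic cancer. Trp53 was at 191 and 181 TPM; gene-level TPM do not separate mutant from normal alleles. The small GTPase genes Hras and Nras were at 33.4 and 37.2 and at 58.6 and 61.6 TPM. Cdkn2a, which encodes the INK4A and ARF tumour suppressors and is often lost in this cancer, was at 138 and 162 TPM. Smad4, the common mediator of transforming growth factor signals, was at 41.5 and 40.5 TPM. The cyclins that drive entry into S phase were led by Ccnd1 at 434 and 404 TPM, with Ccnd3 at 68.4 and 69.7 TPM and Ccnd2 at 59.2 and 55.4 TPM, and their kinase Cdk4 at 323 and 333 TPM was well above Cdk6 at 13 and 12.6 TPM. Myc was at 106 and 89.5 TPM, Mycn at 2.58 and 2.15 TPM and Mycl at 0.325 and 0.505 TPM.

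Receptor tyrosine kinases were expressed at 21 of 54 and were led by Axl and Epha2. Axl, a receptor for the ligands Gas6 and Pros1 that is often high in mesenchymal or drug-resistant carcinoma, was at 199 and 184 TPM. Of those ligands Pros1 was at 23.5 and 24.9 TPM and Gas6 at 0.245 and 0.264 TPM. Epha2, an ephrin receptor, was at 131 and 136 TPM, with its ligand Efna1 at 36.2 and 35.6 TPM. The collagen receptor Ddr1 (49 and 47.9 TPM) and Met, the receptor for hepatocyte growth factor (29.2 and 28.6 TPM), were in the middle of the list, and the ligand Hgf was listed at 0. The insulin receptors Insr (6.57 and 5.9 TPM) and Igf1r (6.27 and 5.68 TPM) were close in level. None of the fibroblast growth factor receptors was above 2 TPM: Fgfr3 (1.24 and 1.26 TPM) and Fgfr4 (1.19 and 1.75 TPM) passed, while Fgfr1 (0.16 and 0.197 TPM) and Fgfr2 (0.034 and 0.0515 TPM) did not. Kit, a receptor of blood and germ cell precursors, and Erbb4, the neuregulin receptor of heart and nerve, were listed at 0.

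In the EGF family Egfr was low and several ligands were higher. Egfr, the receptor for most of its ligands, was just above the minimum at 1.21 and 1.46 TPM. Erbb2, which has no ligand of its own, was at 14.8 and 13.6 TPM, and Erbb3, the neuregulin receptor without strong kinase activity, at 3.05 and 2.22 TPM. The ligand genes were expressed at 7 of 11, with Hbegf at 59.5 and 62.4 TPM, Areg at 53.5 and 51.7 TPM, Tgfa at 18.3 and 19.1 TPM, Btc at 14.4 and 15.6 TPM and Ereg at 11.9 and 13.9 TPM. Each of these 5 lay above Egfr in both libraries. The neuregulins Nrg1 (12.1 and 11.2 TPM) and Nrg2 (5.77 and 4.73 TPM) were expressed too, while Egf itself was at 0.303 and 0.48 TPM.

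Other growth factor families lay further apart. Pdgfb (26.5 and 24.6 TPM) and Pdgfc (18.6 and 18 TPM) were expressed, while their receptors Pdgfra (0.255 and 0.127 TPM) and Pdgfrb (0 and 0 TPM) were not. Kitl, the ligand of Kit, was at 8 and 8.95 TPM. Among vascular factors Vegfb was at 50.3 and 40.4 TPM and Vegfa at 21.7 and 21.4 TPM, with the receptor Kdr at 0.03 and 0.0182 TPM. The Hippo targets Cyr61 (103 and 100 TPM) and Ctgf (26 and 28 TPM), matricellular proteins, differed in level without overlap. Of the fibroblast growth factors, 4 of 23 genes were expressed, led by Fgf13, an intracellular family member, at 17.1 and 16.9 TPM.

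Components of transforming growth factor and BMP signalling were present on both sides. The receptors Tgfbr2 (26.6 and 25.5 TPM) and Tgfbr1 (14.5 and 14.3 TPM) were expressed, as were Bmpr1a (25.6 and 24.1 TPM) and Acvr1 (24.4 and 22.2 TPM), 8 of 14 receptors in all. Among 40 ligands and antagonists 12 were expressed. Tgfb1 was the highest at 62.3 and 50.6 TPM, and Bmp4 and Bmp8b followed at 13.3 and 13.5 and at 13.5 and 13.2 TPM. Lefty1, a Nodal antagonist of the early embryo, was at 12.6 and 14.1 TPM. Inhba, the activin subunit, was at 2.68 and 2.86 TPM, and the stress cytokine Gdf15 at 1.77 and 1.91 TPM.

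Wnt, Notch and Hedgehog genes were expressed at 15 of 24 receptors and 7 of 38 ligands. The Wnt co-receptors Lrp5 (69.2 and 59 TPM) and Lrp6 (16.2 and 15.3 TPM) and the Frizzled gene Fzd6 (16 and 14 TPM) were present, and Wnt7a was the highest Wnt at 22.3 and 23 TPM. Fzd8, Wnt4 and Wnt10a fell on different sides of the minimum, at 0.657 and 1.07, at 0.963 and 1.03 and at 0.888 and 1 TPM. Lgr5, a Wnt-responsive stem cell receptor, was at 0.0702 and 0.0319 TPM and its relative Lgr4 at 12.9 and 12.2 TPM. For Notch, Notch2 was at 17 and 15 TPM and Notch1 at 5.62 and 4.94 TPM, and the ligands Jag2 and Jag1 were higher, at 30.6 and 31.1 and at 25.2 and 25.3 TPM. For Hedgehog, the signal transducer Smo was at 39.6 and 41.3 TPM and the receptor Ptch1 at 7.79 and 7.08 TPM. The ligand expressed was Dhh, desert hedgehog, at 22.6 and 21.5 TPM, whereas Shh (0.238 and 0.059 TPM), the ligand known from pancreatic cancer, and Ihh (0.587 and 0.336 TPM) were below the minimum.

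**Figure D3:**
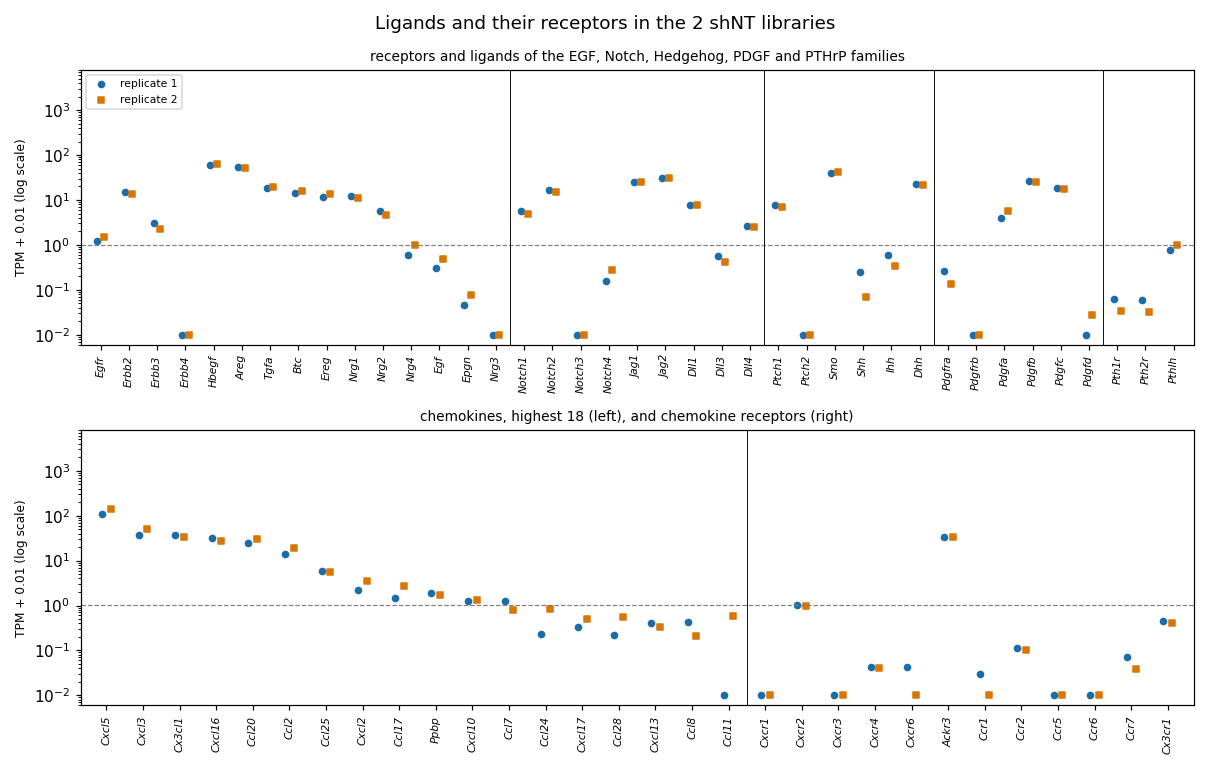
TPM + 0.01 on a log axis for receptors and ligands of the EGF, Notch, Hedgehog, PDGF and PTHrP families (upper panel) and for chemokines and their receptors (lower panel); circles are replicate 1, squares replicate 2, the dashed line is 1 TPM and vertical lines part the families. The EGF ligand Hbegf at 59.5 and 62.4 TPM stands above its receptor Egfr at 1.21 and 1.46 TPM.

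The parathyroid hormone axis that the study was built around was near or below the minimum in the control cells. Pthlh was at 0.752 and 0.966 TPM, below 1 TPM in both libraries. Leaving out small-RNA entries multiplied values by 1.53 in replicate 1 and 1.33 in replicate 2, which carried Pthlh past 1 TPM in both. Its receptor Pth1r was at 0.0531 and 0.0241 TPM and the related Pth2r at 0.0483 and 0.022 TPM. Peptide hormones as a class were rare, at 4 of 34, and none of the 4 exceeded 5 TPM; the highest was Ghrl. Edn1, a vasoconstrictor peptide, and Adm2 fell on different sides of the minimum, at 0.998 and 1.24 and at 1.11 and 0.367 TPM.

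Of 114 G protein-coupled receptors 26 were expressed, a share of 22.8%, well below the 50.5% of protein-coding genes. The thrombin receptor F2r led at 267 and 257 TPM, and its relative F2rl1, cleaved by trypsin-like proteases, was at 56 and 53.3 TPM. Gprc5a, an orphan receptor induced by retinoic acid, was at 218 and 190 TPM. The prostaglandin E receptor Ptger1 was at 23.3 and 19.8 TPM. Ptgs2, the inducible cyclooxygenase that makes the common precursor of prostaglandins, was at 32.9 and 36 TPM. Ptges, the only prostaglandin E synthase listed, was below the minimum at 0.329 and 0.427 TPM. The prostaglandin D synthase Ptgds was expressed at 17.7 and 20.9 TPM. Adenosine receptors Adora1 (21.5 and 18.9 TPM) and Adora2a (11 and 9.9 TPM) were expressed together with Nt5e, the ectoenzyme that makes adenosine, at 35 and 34.8 TPM. Of the chemokine receptors looked at, the only one past the minimum was the scavenger Ackr3 at 33.2 and 33.5 TPM; Cxcr4 was at 0.0337 and 0.0306 TPM, and Cxcr2 missed the minimum narrowly in both libraries, at 1 and 0.972 TPM.

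The chemokine ligands were expressed at 11 of 35 and were led by Cxcl5, which attracts neutrophils through Cxcr2. Cxcl5 was at 109 and 141 TPM and Cxcl3, of the same subfamily, at 36.6 and 50.9 TPM, whereas Cxcl1 was listed at 0 in both libraries. Cx3cl1, a membrane-bound chemokine, was at 37.8 and 34.2 TPM and Cxcl16 at 31.9 and 27.4 TPM. Ccl20, which draws Ccr6-positive lymphocytes, was at 25.1 and 31 TPM and the monocyte attractant Ccl2 at 14.2 and 19.2 TPM. Cxcl5, Cxcl3, Ccl20, Ccl2 and Cxcl2 (2.23 and 3.54 TPM) were all higher in replicate 2, and the short-transcript difference between the libraries went the same way. Cxcl12, the stromal ligand of Cxcr4, was listed at 0.

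Cytokines were expressed at 13 of 52, with Spp1 and Mif, the macrophage migration inhibitory factor, far above the rest; Mif was at 752 and 847 TPM. Clcf1, of the interleukin-6 family, was at 35.1 and 43.8 TPM, the alarmin Il33 at 33.3 and 38.7 TPM and the costimulatory ligand Tnfsf9 at 21.6 and 23.6 TPM. The myeloid growth factors were lower, Csf1 at 13.6 and 13.2 TPM and Csf2 at 1.97 and 3.96 TPM. The inflammatory cytokines Il6 (0.0594 and 0.058 TPM), Il1a (0.0608 and 0.249 TPM) and Il1b (0.24 and 0 TPM) were below the minimum and Tnf was listed at 0. The Lif gene, a cytokine of the same family as Clcf1, was at 3.42 and 3.14 TPM, with its receptor Lifr at 4.96 and 4.35 TPM and the shared subunit Il6st at 13.5 and 14.3 TPM.

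Of the cytokine and death receptors, 24 of 56 were expressed and Tnfrsf12a, the receptor of the ligand TWEAK, was the highest at 403 and 542 TPM. Its ligand gene Tnfsf12 was at 7.28 and 6.97 TPM. The interferon gamma receptor chains Ifngr1 (47 and 48 TPM) and Ifngr2 (56.3 and 48.1 TPM) and the interleukin-22 receptor Il22ra1 (39.1 and 36.8 TPM) were expressed. Il1r1, the interleukin-1 receptor, was at 15.6 and 13.7 TPM, and its accessory chain Il1rap was listed at 0. Fas, the receptor of the death ligand, was at 0.606 and 0.465 TPM and the oncostatin M receptor Osmr at 0.784 and 0.836 TPM.

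Ligands seen by immune cells were expressed at 12 of 26. The class I chain genes B2m (152 and 169 TPM), H2-D1 (67.9 and 69.1 TPM) and H2-K1 (41.3 and 45.5 TPM) were present; class I genes resemble each other closely, so reads may be split between them. Cd24a (236 and 223 TPM) and Cd47 (75.2 and 86 TPM), both of which restrain phagocytosis, and Lgals9 (84.2 and 92 TPM), a ligand of an inhibitory T cell receptor, were also expressed. Cd276, an inhibitory B7 family member, was at 30.4 and 27.2 TPM, whereas Cd274, the ligand of PD-1, was below the minimum at 0.842 and 0.84 TPM. Rescaling without small-RNA entries carried Cd274 past the minimum in both libraries. Among guidance molecules 17 of 34 ligands and 10 of 21 receptors were expressed, led by the ephrin Efnb2 at 66.6 and 63.9 TPM, the semaphorin Sema3c at 54 and 53.7 TPM and the plexin Plxnb2, a semaphorin receptor, at 129 and 113 TPM.

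Adhesion genes showed epithelial and mesenchymal members side by side. Vim, the intermediate filament of mesenchymal and many cultured cells, was at 1840 and 1724 TPM, above Krt8 and Krt18 in both libraries. Des, the muscle filament, and the basal keratins Krt5 and Krt17 were at 0 and 0.0337, at 0.027 and 0 and at 0 and 0 TPM. Of 63 keratins and other intermediate filaments 15 were expressed. Cdh1 was far above Cdh2, the neural cadherin that rises in mesenchymal transition, at 33.7 and 29.6 TPM. The intestinal cadherin Cdh17 lay between them without overlap, and Cdh3, the placental cadherin, was at 8.08 and 7.79 TPM. The catenins that tie cadherins to actin were high: Ctnnb1 was at 388 and 396 TPM and Ctnna1 at 288 and 275 TPM.

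Tight junction and polarity genes other than claudins were expressed at 16 of 21, and 5 of 23 claudins, membrane proteins that form the seal, were expressed. The scaffold Tjp1 was at 31.3 and 30.6 TPM, cingulin (Cgn) at 43.8 and 43.6 TPM and occludin (Ocln) at 6.3 and 7.17 TPM. Cldn2, which forms a pore for cations, was the highest claudin at 69.1 and 73.6 TPM. Cldn6, a claudin of embryonic epithelium, was at 38.4 and 39.9 TPM and Cldn12 at 18.9 and 17.8 TPM, and no other claudin passed 3 TPM. Cldn18, the gastric claudin, was at 1.55 and 1.41 TPM, Cldn7 at 2.11 and 2.02 TPM, Cldn1 at 0 and 0.0159 TPM and Cldn3 was listed at 0. The starts of Cldn2 (chrX:139800558-139800857, plus strand), Cldn3 (chr5:134985964-134986263, plus strand) and Cldn4 (chr5:134946885-134947184, minus strand) are shown to set the highest claudin beside 2 that were at or near 0, with the same window, source and marked letters as above.
Cldn2: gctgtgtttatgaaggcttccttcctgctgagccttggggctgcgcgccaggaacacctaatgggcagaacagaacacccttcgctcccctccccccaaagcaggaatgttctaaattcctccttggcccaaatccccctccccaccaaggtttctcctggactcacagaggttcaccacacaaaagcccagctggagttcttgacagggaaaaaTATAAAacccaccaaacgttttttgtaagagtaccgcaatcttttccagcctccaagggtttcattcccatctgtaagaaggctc
Cldn3: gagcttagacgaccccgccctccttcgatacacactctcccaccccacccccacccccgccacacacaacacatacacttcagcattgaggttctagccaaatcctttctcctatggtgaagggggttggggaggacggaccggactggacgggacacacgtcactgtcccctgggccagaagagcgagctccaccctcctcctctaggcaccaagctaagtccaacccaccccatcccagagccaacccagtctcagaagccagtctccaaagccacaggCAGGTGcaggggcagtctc
Cldn4: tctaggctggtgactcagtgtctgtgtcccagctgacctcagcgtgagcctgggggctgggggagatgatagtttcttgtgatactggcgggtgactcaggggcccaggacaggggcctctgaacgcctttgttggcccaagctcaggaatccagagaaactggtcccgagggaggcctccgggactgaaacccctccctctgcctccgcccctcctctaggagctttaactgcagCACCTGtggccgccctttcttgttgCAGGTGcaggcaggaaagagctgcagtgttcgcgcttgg
The Cldn2 window held a TATA match and no E-box match, Cldn3 held 1 E-box match and Cldn4 held 2, with no TATA match in either.

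Desmosomal genes were expressed at 9 of 18. Desmoplakin (Dsp), which links the plaque to keratins, was at 54.3 and 52.2 TPM, plakoglobin (Jup) at 33.7 and 30.7 TPM and the membrane protein Perp at 82.4 and 77.7 TPM. Of the desmosomal cadherins Dsg2 was at 7.46 and 6.68 TPM and Dsc2 was below the minimum at 0.666 and 0.415 TPM. Pkp1, a plakophilin of stratified epithelium, fell on different sides of the minimum at 1.04 and 0.792 TPM, while Pkp2 was at 17.6 and 17.4 TPM. Connexins of gap junctions were expressed at 6 of 17, among them Gja1, the most widespread connexin, at 17.7 and 17.4 TPM.

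Of the integrin chains 7 of 18 alpha and 6 of 8 beta genes were expressed. Itgb1, the beta chain shared by most of them, was at 323 and 312 TPM. The laminin-binding alpha chains Itga3 (150 and 148 TPM) and Itga6 (101 and 93.7 TPM) were highest, above the collagen-binding Itga2 at 39.8 and 38.3 TPM and Itgav, a chain of vitronectin receptors, at 30.7 and 31.6 TPM. Itgb4, the hemidesmosomal partner of Itga6, was at 11.6 and 11 TPM, and the leukocyte chain Itgb2 at 0.04 and 0.0727 TPM. Of the laminin chains 6 of 11 were expressed, with Lama5 at 69.7 and 65.6 TPM, Lamc1 at 63.7 and 59.6 TPM and Lamb3 at 28.2 and 26.1 TPM. Lama3, which joins Lamb3 in the laminin of hemidesmosomes, was below the minimum at 0.107 and 0.205 TPM.

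Matrix genes were expressed at 13 of 40, and basement membrane genes were the highest of them. Col4a1 was at 123 and 110 TPM, Col18a1 at 73.4 and 67.9 TPM, agrin (Agrn) at 73.4 and 72.3 TPM and fibronectin (Fn1) at 30 and 30.3 TPM, whereas Col1a2 was at 0.0105 and 0 TPM and Col3a1 was listed at 0. Other surface molecules were led by the tetraspanin Cd9 at 461 and 502 TPM, the syndecan Sdc1 at 134 and 135 TPM and Cd44, a hyaluronan receptor, at 103 and 103 TPM. Vcam1, an endothelial adhesion ligand for leukocytes, was at 70.5 and 71.7 TPM. Among mucins and other genes listed with them, mesothelin (Msln) was at 195 and 202 TPM. Cathepsin E (Ctse), a gene of precursor lesions, was at 118 and 122 TPM. Agr2, Muc13 and Muc5ac were at 0 and 0, at 0 and 0 and at 0.384 and 0.469 TPM.

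**Figure D4:**
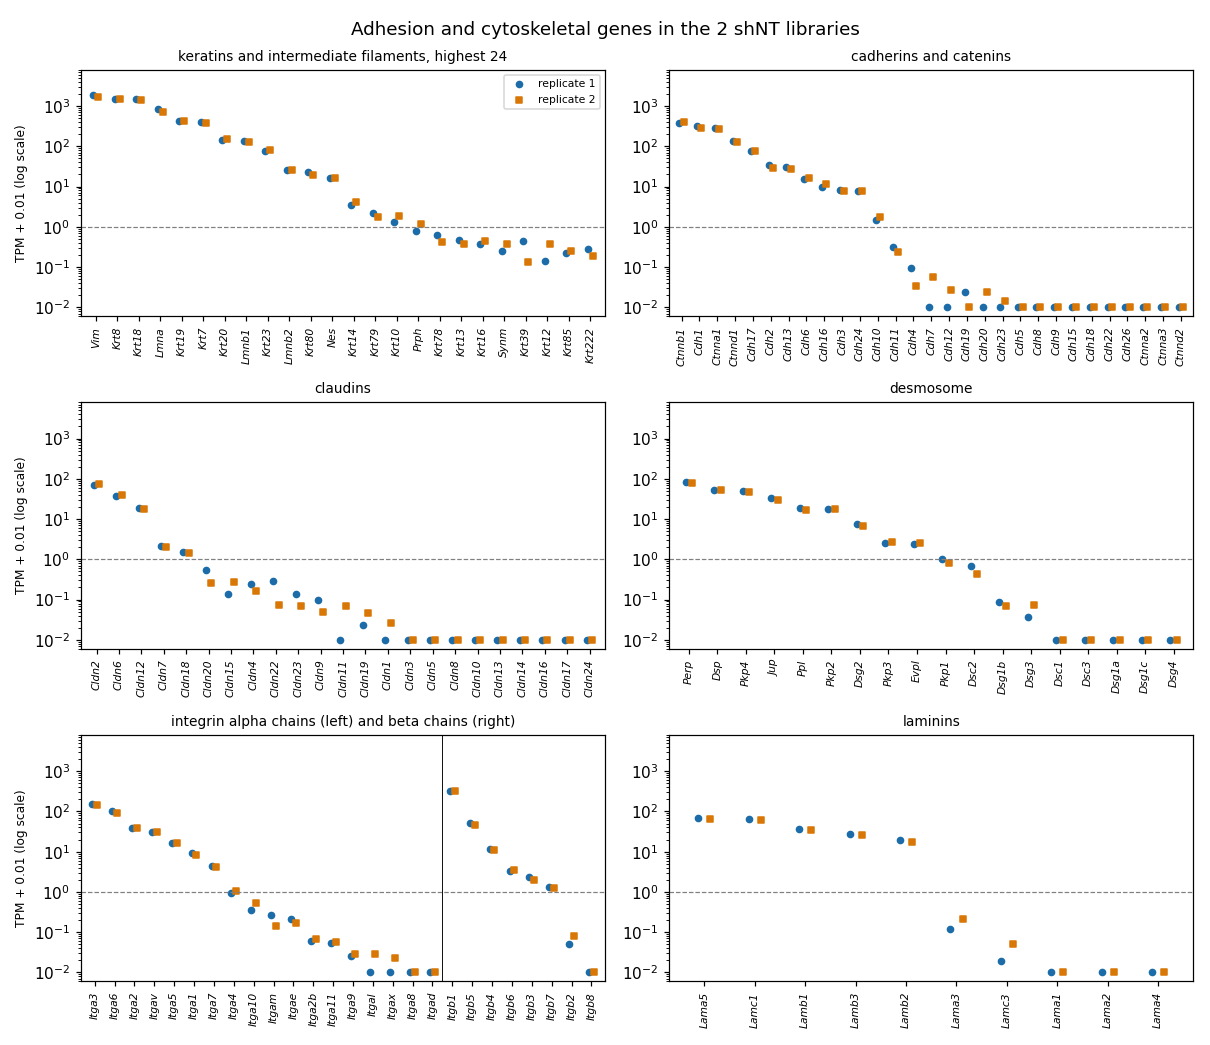
TPM + 0.01 on a log axis for keratins, cadherins and catenins, claudins, desmosomal genes, integrins and laminins; circles are replicate 1, squares replicate 2, and the dashed line is 1 TPM. In the claudin panel Cldn2 lies highest at 69.1 and 73.6 TPM and 18 of 23 claudins lie below the line in both libraries.

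For 37 metabolic families the member with the highest TPM was the same in both libraries, and in 36 of them its lower value lay above the higher value of the next member. The exception was the amino acid transporters, where Slc3a2 (118 and 122 TPM) and Slc38a2 (118 and 118 TPM) overlapped. In 11 families the highest member held over 90% of the family's TPM in both libraries. Some families join enzymes with different jobs, so the highest member is a statement of level, not of function.

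In each glycolytic family 1 isoform lay above the next without overlap between libraries. Slc2a1, the basal glucose transporter, was at 69.2 and 73.3 TPM and held 95.6% of its family in each library. Hk1 was at 46 and 45.8 TPM and Hk2, the inducible hexokinase, at 25.5 and 25.1 TPM. Of the phosphofructokinases the muscle form Pfkm was at 38 and 41.7 TPM, the liver form Pfkl at 25.9 and 25.1 TPM and the platelet form Pfkp narrowly below the minimum at 0.992 and 0.916 TPM. Aldoa (395 and 376 TPM) and Eno1 (1192 and 1141 TPM) made up over 90% of their families, and the muscle enolase Eno3 was at 31.2 and 29.9 TPM. Pkm was at 2036 and 2133 TPM, and Pklr, the pyruvate kinase of liver and red cells, was also expressed at 42.7 and 42.9 TPM; the gene-level value of Pkm does not separate its splice forms.

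The lactate genes were sharply divided. Ldha, the form that favours lactate production, was at 788 and 870 TPM and held 99.2% of the family in replicate 1 and 99.3% in replicate 2. Ldhb, the heart form, was at 0.114 and 0 TPM. The lactate carrier Slc16a1 was at 97.8 and 99.3 TPM and Slc16a3, the carrier of highly glycolytic cells, at 2.13 and 2.14 TPM. The start of Ldhb (chr6:142507908-142508207, minus strand; RefSeq, GRCm38.p6) is shown as that of a gene of general metabolism at or near 0, and it held neither of the letter strings searched.
Ldhb: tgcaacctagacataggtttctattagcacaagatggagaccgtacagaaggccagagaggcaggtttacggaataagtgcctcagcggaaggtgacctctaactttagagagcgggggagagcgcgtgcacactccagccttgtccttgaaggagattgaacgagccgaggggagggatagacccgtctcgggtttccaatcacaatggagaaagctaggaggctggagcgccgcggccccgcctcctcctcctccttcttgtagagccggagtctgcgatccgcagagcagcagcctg
Of 8 gluconeogenic genes 4 were expressed: the mitochondrial Pck2 (32.8 and 32.2 TPM), the widely expressed glucose phosphatase G6pc3 (13.5 and 13.2 TPM), the muscle phosphatase Fbp2 (12 and 13.5 TPM) and pyruvate carboxylase, Pcx (3.5 and 3.04 TPM), while the liver forms Pck1 (0 and 0.0201 TPM) and Fbp1 (0 and 0 TPM) were not expressed. The pyruvate dehydrogenase kinases were low, with Pdk1 at 7.04 and 7.12 TPM and Pdk3 at 4.16 and 5.75 TPM.

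**Figure D5:**
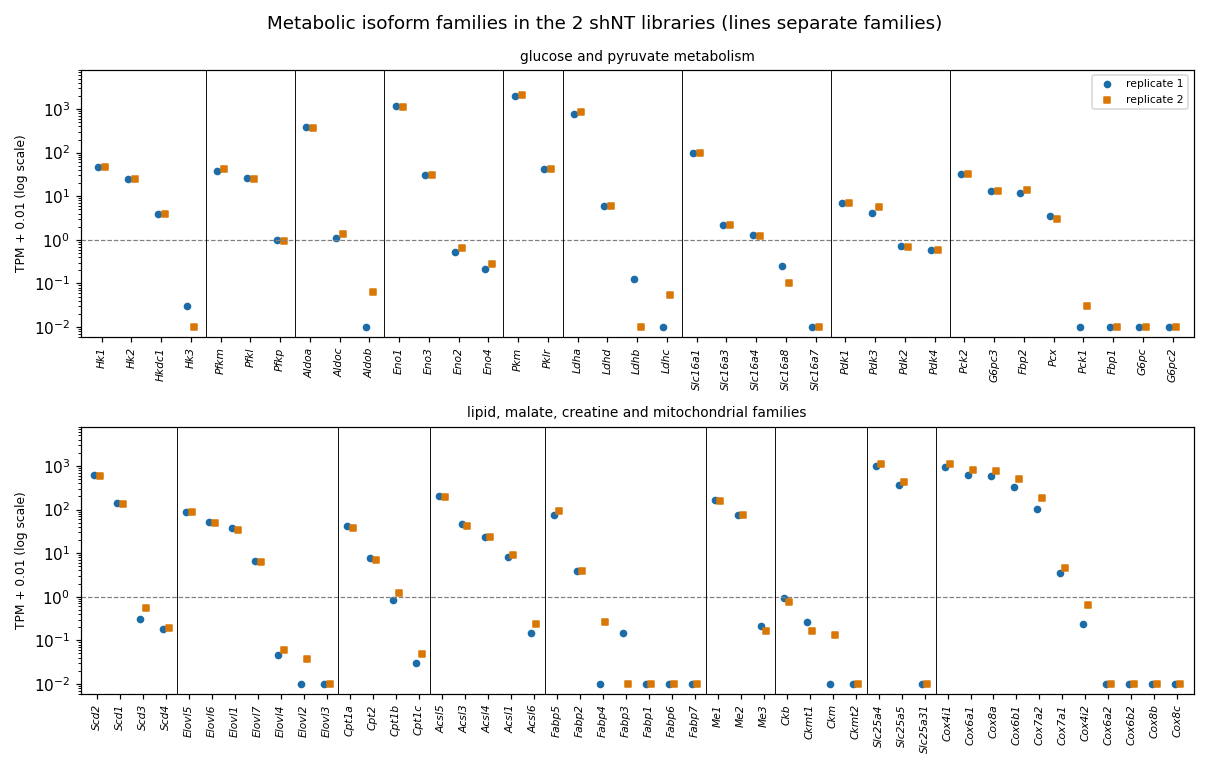
TPM + 0.01 on a log axis for members of metabolic isoform families, parted by vertical lines; circles are replicate 1, squares replicate 2, and the dashed line is 1 TPM. Ldha at 788 and 870 TPM and Ldhb at 0.114 and 0 TPM lie on opposite sides of the line.

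Of the amino acid genes, 7 of 8 transaminases, 11 of 20 transporters and 3 of 10 arginine and urea enzymes were expressed. Psat1, of serine synthesis, was at 309 and 289 TPM. The aspartate transaminases Got2 and Got1, known to support redox balance in pancreatic cancer, were at 182 and 184 and at 74.6 and 80.4 TPM. The malic enzyme Me1 was at 163 and 155 TPM. Glutamine synthetase (Glul) was at 70.5 and 74.7 TPM and Gls2, the liver glutaminase, at 1.94 and 1.87 TPM. Transporters included Slc7a5 at 111 and 109 TPM, the carrier of large neutral amino acids, and the cystine carrier Slc7a11 at 4.6 and 4.58 TPM. In the pentose phosphate pathway transketolase (Tkt) was at 278 and 261 TPM and the entry enzyme G6pdx at 35.6 and 30.6 TPM. Odc1, which starts polyamine synthesis, was at 304 and 287 TPM, and Arg1, the liver arginase, was below the minimum at 0.0429 and 0.156 TPM.

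Genes of lipid synthesis and of fatty acid oxidation were both expressed. Scd2 was at 630 and 586 TPM and Scd1 at 139 and 131 TPM, desaturases that make monounsaturated fatty acids. ATP citrate lyase (Acly) was at 94.3 and 93.1 TPM and fatty acid synthase (Fasn) at 57.5 and 51.9 TPM. For carboxylation, Acaca was at 18.2 and 17.4 TPM and Acacb, the mitochondrial form that restrains oxidation, at 0.0694 and 0.0631 TPM. Cpt1a, the carnitine palmitoyltransferase of most tissues, was at 41.6 and 37.9 TPM. Acsl5, a mitochondrial and reticulum acyl-CoA synthetase, was at 199 and 193 TPM and the epidermal fatty acid binding protein Fabp5 at 75.4 and 91.5 TPM. Of the sterol and ketone enzymes, the cytosolic Hmgcs1 was at 99.1 and 101 TPM.

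Isoforms of energy transfer and ion pumping also had a single leading member in most families. The adenine nucleotide translocator Slc25a4, best known from heart and muscle, was at 990 and 1105 TPM, above Slc25a5, the form of dividing cells, at 367 and 424 TPM. None of 4 creatine kinases was expressed, and the highest, Ckb, was at 0.9 and 0.741 TPM. The general cytochrome oxidase subunit Cox4i1 was at 946 and 1130 TPM, and the muscle form Cox7a1 was expressed at 3.47 and 4.56 TPM beneath Cox7a2 at 104 and 186 TPM. Among sodium pump genes the beta chains Atp1b1 and Atp1b3 were at 122 and 116 and at 109 and 119 TPM. Aldh2, of acetaldehyde oxidation, was at 110 and 111 TPM, and Aldh1a1, used as a marker of stem-like cells, at 1.23 and 1.98 TPM.

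Some members lay close to the minimum. Just inside it were, among others, the Frizzled receptor Fzd4 at 1.02 and 1.26 TPM and the retinaldehyde dehydrogenase Aldh1a3 at 1.06 and 1.37 TPM. Just outside it, with the libraries on different sides, were, among others, the integrin chain Itga4 at 0.95 and 1.03 TPM and Wnt4 at 0.963 and 1.03 TPM. In the 6 gene groups described, ligands had the most such genes, 8 of 333. That share was close to the one of all genes in the table, 472 of 24493.

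Promoters of expressed and unexpressed genes differed in base makeup. Of 20024 protein-coding genes 16020 (80.0%) had a promoter sequence in the RefSeq table. The median window of 300 bases held 22 CG dinucleotides in the 8254 expressed genes, 8 in the 3422 genes above 0 but not expressed, and 3 in the 4344 genes listed at 0. The TATA letters were in 6.29% of expressed promoters and 25.7% of those listed at 0, and within expressed genes their share was 16.9% among the 77 genes at 1000 TPM or more. The E-box letters were in 16.5% of expressed promoters, 23.2% of those above 0 but not expressed and 20.8% of those listed at 0. By count of CG, the window of Krt8 (6) and that of Cldn2 (5), both expressed, lay below the expressed quartile range of 15 to 29, as did those of Epcam (11), Cldn3 (9) and Cldn4 (9), which were not expressed. The window of Ldhb (17) lay inside that range. These are shares of genes of 1 genome, not replicates, and no test was made.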

How the data were processed

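RNA of KPCY pancreatic tumour cells was measured by RNA sequencing; the 2 shNT libraries were taken from the sample titles, and the table's control columns 1 and 2 were matched to shNT replicates 1 and 2 by name. The authors deposited TPM per gene for all 6 libraries. The tools named are Salmon, DESeq2 and R 3.5, and the build is mm10, per the submitters' processing notes; the version of Salmon and the use made of each tool are not given in the sources used here. TPM keep no depth.

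Values were used as deposited and no test was made; 0.01 was added only to draw TPM on log axes. The work was done in Python 3.11.15 with pandas 2.3.3 and numpy 2.4.6. Genes were called expressed at a TPM of at least 1 in both libraries. Symbols were matched to RefSeq (GRCm38.p6) for 23852 of 24493 genes, and lengths came from GENCODE M21. The counting steps were tested on simulated data in which no gene could fall on different sides of the minimum, so that case was not tested. Promoters to show were chosen after their values were seen.

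Members, lists and the naming rule were chosen with earlier results of these data known. The rule names, per list, up to 8 members of highest mean TPM, those on different sides of the minimum and defining members below it; the table's 25 highest genes; and up to 5 genes in each direction that differ most between the libraries. Other genes, such as ligands or relatives of a named gene, were added after their values were seen. Muc3, Muc16, Amy2a2, Trac, Hbb-b2, mitochondrially encoded transcripts and the fluorescent label were not analysed here. Some members that the lists and counts include are not reported here by name or plotted. Alternatives were other minima, 1 library in place of both, and rescaling without small-RNA entries.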

Additional observations from a re-analysis of the deposited data

How the results depend on the processing

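The number of expressed genes was 11583 at a minimum of 0.5 TPM in both libraries, 10039 at 2 TPM, 8398 at 5 TPM, 11328 at 1 TPM in either library and 11084 after leaving out small-RNA entries, which multiplied the other values by 1.53 in replicate 1 and 1.33 in replicate 2. With 1 library left out it was 11067 to 11117. At 5 TPM the expressed receptors fell from 103 to 64; the counts of the other 5 gene groups stayed within 1.5 times under every alternative run. Of 87 lists, the number moved beyond 1.5 times was 24 at 5 TPM, 5 at 2 TPM, 8 at 0.5 TPM, 2 after rescaling and 1 without replicate 1, the lymphocyte list, where Cd3d alone passed. The highest member of all 37 metabolic families was the same with either library left out, which restates that it was the same in both libraries. No paired analysis was possible because 1 group of libraries was described and nothing was tested. Rescaling without small-RNA entries carried Pthlh, Cd274, Osmr, Cxcr2 and Pfkp, among others, from below 1 TPM to above it in both libraries. Depth is unknown, so values near 1 TPM and entries at 0 cannot be given a limit.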

Other observations

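The highest entries outside mitochondrial, ribosomal-protein, small-RNA and predicted genes were led by the ribosomal RNA precursor entry Rn45s at 7299 and 7464 TPM. S100a6, a calcium-binding protein raised in pancreatic cancer, was at 5619 and 8559 TPM, and its relative S100a11 at 4055 and 5016 TPM. The 25 highest also held actin-binding genes, the thymosin Tmsb10 at 4132 and 5533 TPM, cofilin (Cfl1) at 2340 and 2511 TPM and profilin (Pfn1) at 1569 and 1728 TPM. Clu, the secreted chaperone clusterin, was at 2431 and 2138 TPM and the galectin Lgals1 at 2126 and 2672 TPM.

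The largest differences between the 2 control libraries, among genes with a mean of at least 5 TPM, included lower values in replicate 2 for Oaz1-ps (128 and 20.7 TPM) and Btg3 (39.6 and 12.2 TPM) and higher ones for Smim27 (3.31 and 21.4 TPM), Plac9a (17.7 and 70.1 TPM) and Atp5k (301 and 1049 TPM). Oaz1-ps is a pseudogene entry and may share reads with its parent gene, so its value is uncertain. Ribosomal-protein entries held 15.0% of the TPM in replicate 1 and 20.9% in replicate 2. Xist, the RNA that silences 1 X chromosome in female cells, was at 92.4 and 101 TPM, and none of 35 protein-coding genes of the Y chromosome was expressed. The expressed share of protein-coding genes ran from 39.5% on chromosome 7 to 61.0% on chromosome 8, with 33.0% on X.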
